A study of Homo sapiens with 12 samples.

Results

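Chromosome ends were examined here: the 4926 consensus intervals of H3K27me3 that lay within 2 Mb of either end of chromosomes 1 to 22, out of 273664 intervals in the deposited table. An interval was included where its end lay below 2 Mb, or where its start lay less than 2 Mb from the largest interval end on that chromosome. Another 20 intervals straddled the window edge and were not included. The members covered 36.8 Mb on 39 chromosome arms, and the 5 short arms of the acrocentric chromosomes held none. The cells were T24, an established human bladder cancer line, grown for 72 h with 5 µM GSK-126, an inhibitor of the methyltransferase EZH2, with 5 µM fenretinide, a synthetic retinoid, with 5 µM of each together, or with the vehicle DMSO. Chromatin was fixed with 1% formaldehyde for 10 min before immunoprecipitation of H3K27me3. With 1 library a condition there was nothing to test against, so values are compared by counting error alone and without p-values. Input and RNA libraries, 4 of each, were not analysed here, so the identity of the cells rests on their label.

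H3K27me3 is written by Polycomb repressive complex 2, whose catalytic subunit is EZH2, and it marks silent developmental genes and broad silent domains. The last megabases of human chromosomes mix gene-dense, GC-rich arms with gene-poor ones. They also carry clusters of KRAB zinc-finger genes, olfactory receptor genes and families copied between chromosome ends, such as DUX4, FRG2 and WASH. Zinc-finger gene clusters are known for heterochromatin of another kind, marked by H3K9me3.

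The windows held 1400 protein-coding genes in RefSeq, 82 of them named ZNF, ZSCAN or ZKSCAN. Promoters there, taken as the 250 bases upstream of a RefSeq start on GRCh38.p14, had a median GC content of 66.4% and a median of 18 CpG dinucleotides (n = 2030), against 57.6% and 10 CpG elsewhere on these chromosomes (n = 31695). The hexamer TTAGGG or its complement CCCTAA, the vertebrate telomere repeat unit, occurred in 5.52% of the promoters in the windows, against 7.99% of all promoters on these chromosomes. Below are promoters from chromosomes other than 8, inside intervals that contained the start of a protein-coding gene. They come from the 3 such intervals with the largest rises and the 3 with the largest falls in the GSK-126 library. Ranking was by the counting bound nearest 1. The largest rise of all, at the ZNF7 promoter on 8q with a ratio of 95.8, is among those not shown. Other intervals with larger rises, given further on, held no such promoter or lie on an arm whose sequence is not shown. The promoters are sequence from inside intervals that rose or fell, with each CG in capitals. Fragments were counted over whole intervals and not over the promoters themselves.
ZNF154 promoter, chr19:57709205-57709454, minus strand: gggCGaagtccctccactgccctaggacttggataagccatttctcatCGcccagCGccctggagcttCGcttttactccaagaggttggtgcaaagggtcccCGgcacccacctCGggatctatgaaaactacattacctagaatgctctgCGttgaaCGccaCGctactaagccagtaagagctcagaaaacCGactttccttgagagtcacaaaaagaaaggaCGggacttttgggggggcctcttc
ANHX promoter, chr12:133235837-133236086, minus strand: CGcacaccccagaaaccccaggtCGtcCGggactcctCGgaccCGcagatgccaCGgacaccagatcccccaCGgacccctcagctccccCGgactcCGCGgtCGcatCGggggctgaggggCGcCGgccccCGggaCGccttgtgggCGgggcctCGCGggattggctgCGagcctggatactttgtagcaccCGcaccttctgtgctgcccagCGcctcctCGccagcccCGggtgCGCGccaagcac
ZNF274 promoter, chr19:58182811-58183060, plus strand: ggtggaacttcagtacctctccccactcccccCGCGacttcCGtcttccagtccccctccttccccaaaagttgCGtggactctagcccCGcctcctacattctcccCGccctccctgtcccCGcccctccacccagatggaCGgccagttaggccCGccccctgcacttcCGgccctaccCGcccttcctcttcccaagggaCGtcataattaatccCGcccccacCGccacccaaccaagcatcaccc
CCDC183 promoter, chr9:136796088-136796337, plus strand: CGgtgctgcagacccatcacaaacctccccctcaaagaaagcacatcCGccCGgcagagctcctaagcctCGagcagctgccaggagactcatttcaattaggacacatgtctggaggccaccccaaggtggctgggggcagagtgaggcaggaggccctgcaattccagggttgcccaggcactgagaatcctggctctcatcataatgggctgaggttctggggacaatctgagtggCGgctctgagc
AQP12B promoter, chr2:240682886-240683135, minus strand: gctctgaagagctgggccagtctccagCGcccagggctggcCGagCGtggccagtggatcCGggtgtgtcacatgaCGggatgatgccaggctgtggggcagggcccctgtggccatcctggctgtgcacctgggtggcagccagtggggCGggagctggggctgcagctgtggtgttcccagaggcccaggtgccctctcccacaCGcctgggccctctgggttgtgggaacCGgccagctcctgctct
SAMD11 promoter, chr1:925481-925730, plus strand: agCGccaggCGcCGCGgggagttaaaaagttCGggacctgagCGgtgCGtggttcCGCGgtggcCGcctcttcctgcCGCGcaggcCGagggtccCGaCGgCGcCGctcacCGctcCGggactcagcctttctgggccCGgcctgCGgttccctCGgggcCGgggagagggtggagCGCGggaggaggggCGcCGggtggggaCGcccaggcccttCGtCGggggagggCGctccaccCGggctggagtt

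Of these promoters, ZNF154 had 11 CG, ANHX 26 and ZNF274 14, all inside intervals with more fragments in the GSK-126 library. CCDC183 had 5 CG, AQP12B 8 and SAMD11 32, all inside intervals with fewer. The median over all promoters of these chromosomes was 11. The ZNF154 interval, chr19:57683242-57737589, held 1257 fragments in the GSK-126 library, 141 in the fenretinide library, 877 in the combination library and 95 in the vehicle library. The SAMD11 interval, chr1:910038-944188, held 244 fragments in the GSK-126 library, 738 in the fenretinide library, 191 in the combination library and 1352 in the vehicle library. Over all starts, those inside intervals called lower with GSK-126 (n = 309) had a median of 10 CpG, those inside intervals called higher (n = 72) 11 CpG, and those inside intervals called lower with fenretinide (n = 39) 19 CpG. Over the 609 starts inside any member interval the median was 10 CpG.

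Depth was similar across libraries, with 16156194 interval fragments in the GSK-126 library, 18928836 with fenretinide, 15812933 with both and 17133107 with vehicle. Levels are fragments per kb of interval scaled to a depth of 1000000 interval fragments (FPKM). Ratios are ratios of library shares, with an exact 95% interval that covers counting error only. No added reference chromatin is named in the sources used here, so a share shows where a library's H3K27me3 fragments lay and not how much mark the cells held. Membership of an interval in the table depends on peaks called in these same libraries, and 557 members had no fragment in at least 1 library.

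Chromosome ends held a smaller share of the H3K27me3 fragments in all 3 treated libraries than in the vehicle library. The share was 2.93% with GSK-126, 3.21% with fenretinide, 2.75% with the combination and 3.93% with vehicle. In level this was 0.797, 0.873 and 0.747 FPKM in the GSK-126, fenretinide and combination libraries and 1.07 in the vehicle library. The vehicle library was thus the highest of the 4. Against vehicle, GSK-126 had a share ratio of 0.745 (0.742 to 0.748), fenretinide one of 0.817 (0.814 to 0.820) and the combination one of 0.699 (0.696 to 0.702). For the other 247522 intervals of chromosomes 1 to 22 the same ratios were 0.983, 1.00 and 0.989. Against GSK-126 alone, the combination had a ratio of 0.938 (0.934 to 0.942) at the ends and 1.01 elsewhere. The ends had stood above the rest of the autosomes in the vehicle library, at 1.07 against 0.778 FPKM, and were close to it in the GSK-126 library, at 0.797 against 0.765.

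The lower share was not restricted to the window. Between 2 and 5 Mb from an end, 7571 intervals had a GSK-126 ratio of 0.701, a fenretinide ratio of 0.881 and a combination ratio of 0.703. Their level was 1.09 FPKM in the vehicle library and 0.767 in the GSK-126 library, so the high vehicle level was not particular to the window either. Just inside the window edge, from 1.5 to 2.0 Mb, the GSK-126 ratio was 0.660, and just outside it, from 2.0 to 2.5 Mb, it was 0.750. In steps of 0.25 Mb, the GSK-126 ratio was highest at 0.25 to 0.5 Mb, at 0.990, and lowest within the window at 1.75 to 2 Mb, at 0.629. Fenretinide had its lowest ratio, 0.752, at 1 to 1.25 Mb and its values beyond 4.25 Mb lay between 0.937 and 0.95. Combination and GSK-126 mostly lay further apart within the window than beyond 2.5 Mb. Their direct ratio within it ran from 0.894, at 0.25 to 0.5 Mb, to 0.983, at 1.75 to 2 Mb. In each step from 2.5 to 5 Mb it was between 1.01 and 1.02.

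**Figure D1:**
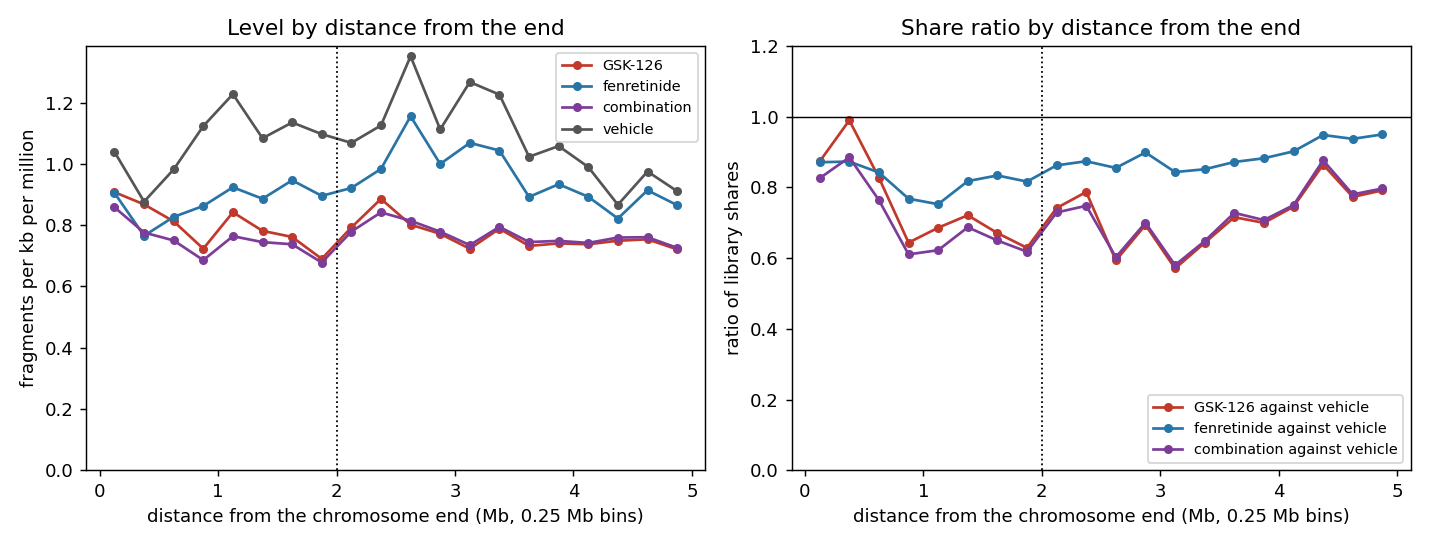
H3K27me3 level (left, FPKM) and share ratio of each treated library over vehicle (right) in steps of 0.25 Mb from the chromosome end, summed over the arms of chromosomes 1 to 22; the dotted line marks the 2 Mb window edge. The vehicle line lies highest within the window, the fenretinide ratio stays between 0.752 and 0.873 there, and the GSK-126 ratio is highest, at 0.990, in the second step.

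Single intervals moved in both directions, and more of them lost than gained. In the GSK-126 library 1123 of 3092 tested members were called lower than vehicle, or 36.3%, against 21.6% of all intervals tested, and 722 were called higher, or 23.4%, against 25.9%. A call needed 20 fragments in both libraries together, a ratio of at least 2 or at most 0.5, and a counting interval that excluded 1. The median log2 ratio was -0.52 over members and -0.01 over all tested intervals. The excess of lower calls was not particular to the window. Between 2 and 5 Mb from an end, 33.4% of tested intervals were lower in the GSK-126 library and 15.5% higher. Their median log2 ratio was -0.53. With fenretinide 163 of 2989 members were called lower, or 5.45%, against 2.16% of all intervals, and 54 were called higher, or 1.81%, against 3.31%. The fenretinide median was -0.20 on the log2 scale, against 0.08 over all intervals. Between 2 and 5 Mb, 4.23% were lower in the fenretinide library, and the median was -0.14. With the combination 1022 of 3040 members were called lower, or 33.6%, against 15.8%, and 629 higher, or 20.7%, against 24.1%. Its median was -0.54, against 0.06 over all intervals. Between 2 and 5 Mb, 27.5% were lower in the combination library, and the median was -0.47. Combination against GSK-126 gave 110 lower calls among 2886 members, or 3.81%, against 1.82% of all intervals, and 42 higher calls, or 1.46%, against 2.48%. The 3 comparisons with vehicle share that library, so their calls are not independent.

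**Figure D2:**
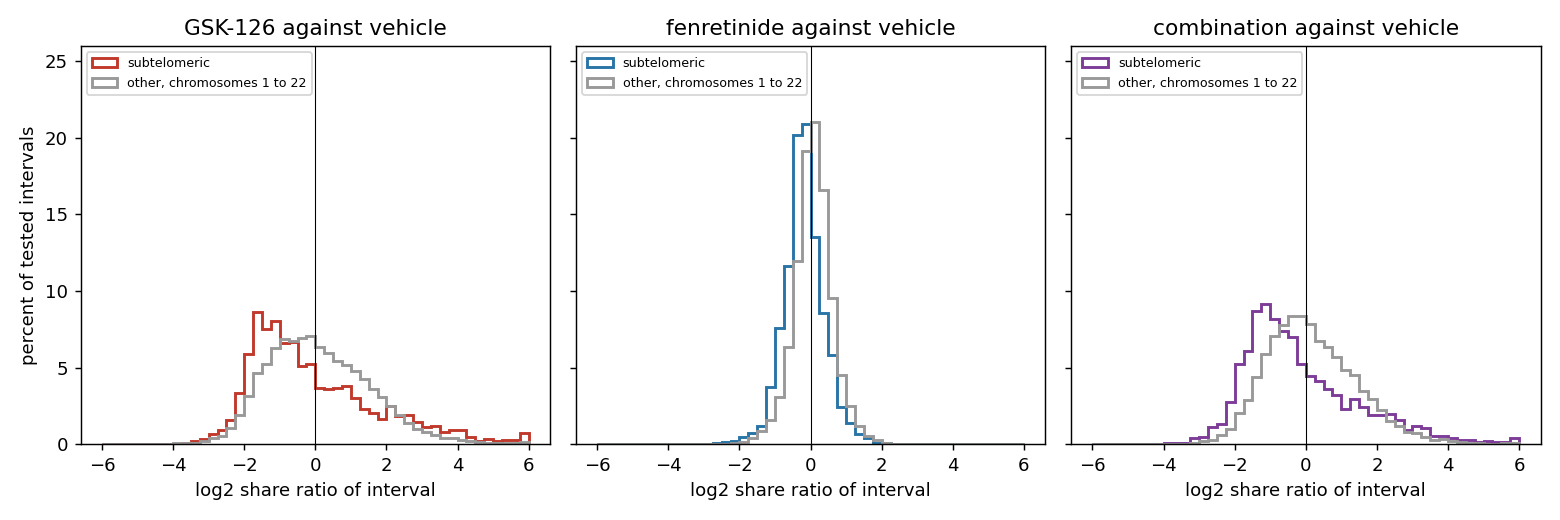
Distribution of the log2 share ratio of single intervals for each treated library over vehicle, as percent of tested intervals, for subtelomeric intervals (coloured) and for the other intervals of chromosomes 1 to 22 (grey), with values beyond 6 placed in the end bins. Subtelomeric intervals lie to the left of the others in each panel, with medians of -0.52 with GSK-126, -0.20 with fenretinide and -0.54 with both, and the GSK-126 panel has a long right tail.

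The excess of lower calls varied with level, length and annotation. Among intervals in the upper tertile of mean level, 41.6% of the tested members were lower with GSK-126, against 22.1% of the others on chromosomes 1 to 22. In the lower tertile of mean level, 27.1% of members were lower, against 21.7% of the others, and 44.6% were higher, against 37.7%. The share ratio of those members was 1.57, and that of the others was 1.35, so both were above 1. By length, 38.0% of the members of 50 kb or more were lower with GSK-126, against 18.8% of other intervals that long, with ratios of 0.675 and 0.825. Intervals annotated as promoter or start site were lower with GSK-126 in 35.8% of tested members and 39.5% of the others, and higher in 24.7% and 10.1%. With fenretinide 14.5% of promoter members and 9.19% of the others were lower, and with the combination 35.9% and 33.9%. Introns showed 37.2% lower among members and 24.9% among the others, and intergenic intervals 34.8% and 19.7%. These shares come from 1 library a condition and carry no test.

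Arms differed widely in level, and the spread between them was narrower with GSK-126. From the lowest to the highest arm the level ran from 0.494 to 1.58 FPKM in the GSK-126 library, from 0.249 to 1.75 with fenretinide, from 0.461 to 1.24 with the combination and from 0.220 to 2.68 with vehicle. The highest arm stood 3.21-fold above the lowest with GSK-126, 7.02-fold with fenretinide, 2.70-fold with the combination and 12.2-fold with vehicle. Over the 852 members of at least 10 kb, the ratio of percentile 90 to percentile 10 of level was 3.78 with GSK-126, 4.97 with fenretinide, 3.27 with the combination and 7.30 with vehicle. Over the 26337 other intervals of that length it was 3.87, 3.85, 3.15 and 5.04 in the same libraries. In the vehicle library the ends were thus more uneven than other regions by this measure, and in the GSK-126 library they were not.

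With GSK-126, 30 of 39 arms had a ratio below 1 and 9 above, and 31 lay below the rest of their own chromosome. Scaled on the 25% of intervals with the lowest density instead, 4 arms (3p, 4q, 19q and 1q) were above 1. With fenretinide 33 arms lay below 1, from 0.608 on 16p to 1.29 on 3p, and 36 under each other scaling tried. With the combination 33 arms lay below 1, from 0.35 on 16p to 3.26 on 3p. Arm 20q had the lowest GSK-126 ratio, with 1.06 FPKM in the GSK-126 library, 1.75 with fenretinide, 0.998 with the combination and 2.68 with vehicle. That ratio was 0.394 (0.387 to 0.401), against 0.794 for the rest of chromosome 20. Arm 16p, which carries the alpha-globin genes and a tryptase cluster, had 0.578, 0.843 and 0.485 in the GSK-126, fenretinide and combination libraries and 1.39 with vehicle. This gave 16p a GSK-126 ratio of 0.417 (0.405 to 0.430). The ratios of 5p, 1p and 6p were 0.474, 0.480 and 0.498. All 5 of these arms were also below 1 with fenretinide, between 0.608 and 0.837.

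At the other extreme stood 3p, 4q, 19q and 1q. Arm 3p had 0.847 FPKM with GSK-126, 0.304 with fenretinide, 0.769 with the combination and 0.236 with vehicle, a GSK-126 ratio of 3.60 (3.5 to 3.7) against 1.10 for the rest of chromosome 3. Arm 4q had a GSK-126 ratio of 3.12 (2.93 to 3.33), 19q one of 2.95 (2.89 to 3.02) and 1q one of 2.76 (2.68 to 2.85). Arm 4p followed at 1.68. These 5 arms also had the 5 lowest levels in the vehicle library, and the same 5 were the lowest in the fenretinide library, which enters no GSK-126 ratio. In the GSK-126 library 3p, 4p, 1q and 19q stood above the median arm level of 0.686, and 4q was at that median. Without these 5 arms, left out after their values were seen, the GSK-126 ratio of the ends was 0.642, and within them it was 2.70.

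**Figure D3:**
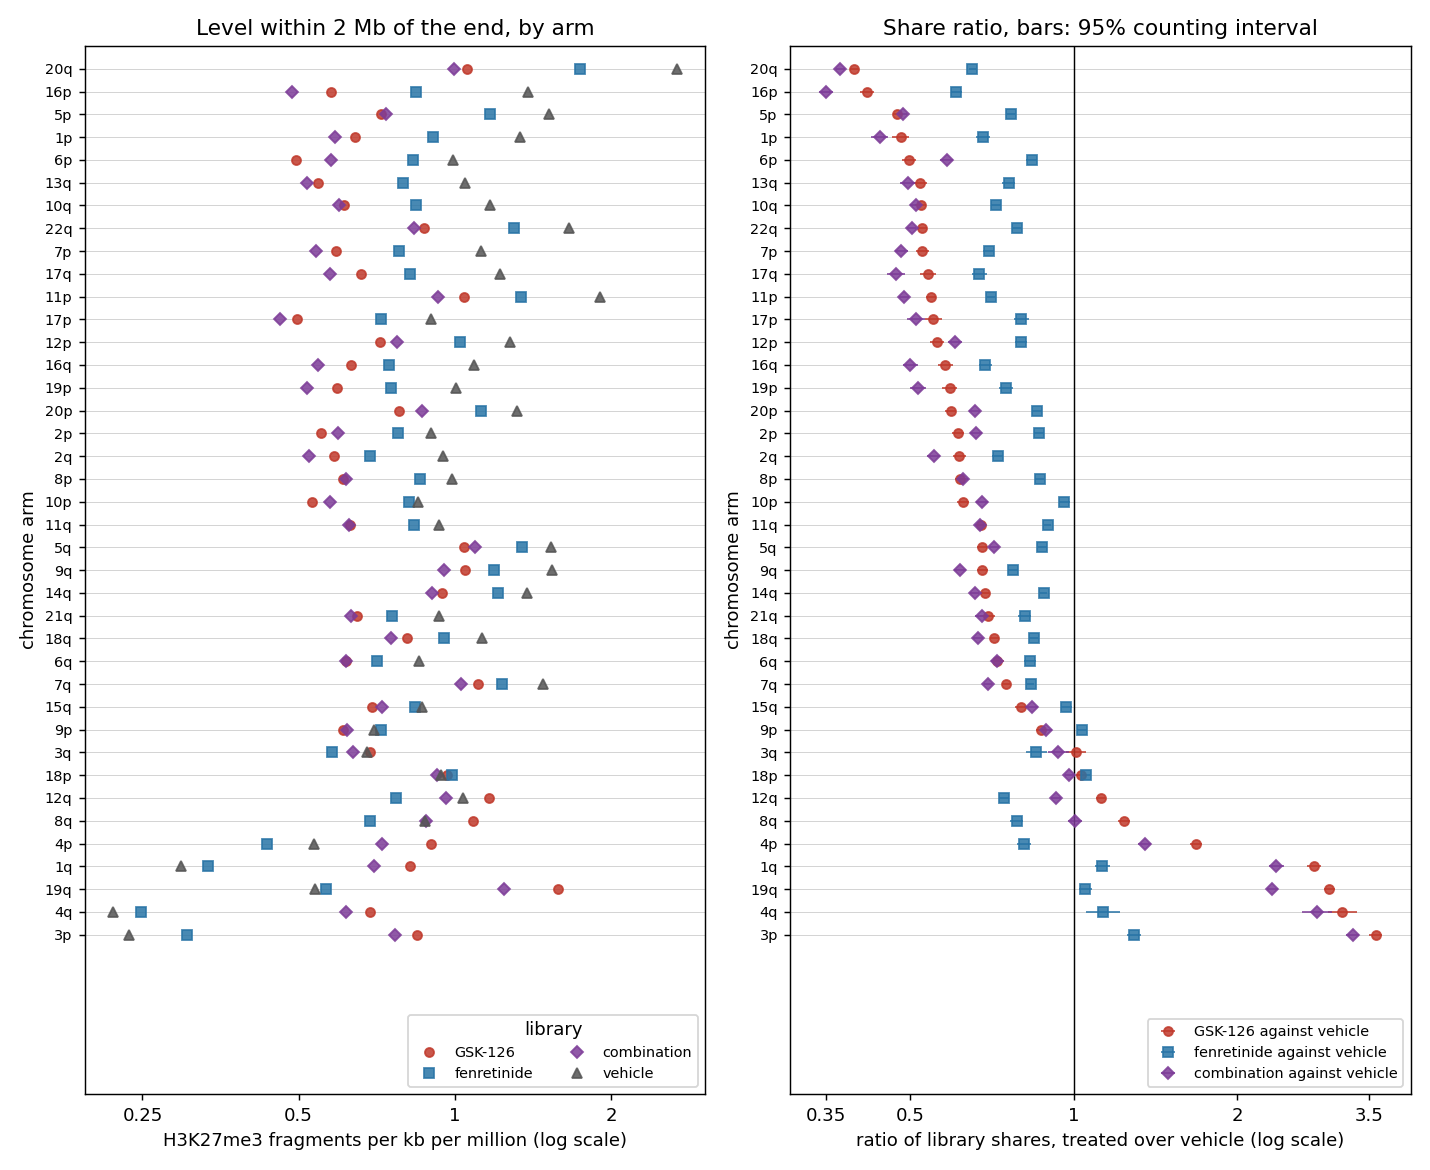
H3K27me3 level in the 4 libraries (left) and share ratio of each treated library over vehicle with its 95% counting interval (right) for the 39 arms, ordered by the GSK-126 ratio, both on log axes. Vehicle levels spread from 0.220 to 2.68 and GSK-126 levels from 0.494 to 1.58, and 4 arms at the bottom exceed a GSK-126 ratio of 2.

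Their gene content differed. In RefSeq, 3p had 4 protein-coding genes in the window and 4q had 3, with no zinc-finger gene in either. On 3p, 132 of 184 tested intervals were called higher with GSK-126 and 2 lower, against 25.9% and 21.6% of all intervals. The minimum for a call is set on both libraries together, so it lets in intervals that pass only through the GSK-126 library. With fenretinide 154 intervals of 3p were tested. A minimum on the vehicle library alone was not tested for intervals. Ratios of summed fragments do not depend on that minimum. For 3p the GSK-126 ratio was 1.6 in the outermost 0.5 Mb and 4.47, 4.73 and 5.82 in the next 3 steps of 0.5 Mb. Across the span of CNTN6, a neuronal contactin, 35 intervals summed to 3310 fragments in the GSK-126 library, 1184 with fenretinide, 2931 with the combination and 831 with vehicle, a GSK-126 ratio of 4.22 (3.91 to 4.56). Nearer the end, the neural adhesion gene CHL1 had 1789, 1743 and 1747 fragments in the treated libraries in that order and 1278 with vehicle, a ratio of 1.48 (1.38 to 1.6). Both genes were picked after their values were seen. Arm 19q, by contrast, had 70 protein-coding genes, 48 of them zinc-finger genes, and 1q had 55 with 6 zinc-finger genes.

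Zinc-finger genes at chromosome ends gained H3K27me3 share with GSK-126. The 147 member intervals with a peak nearest to a zinc-finger gene had a GSK-126 ratio of 4.35 (4.26 to 4.44), against 0.682 (0.679 to 0.684) for the other members. With fenretinide the same intervals had a ratio of 1.05 (1.03 to 1.08), against 0.813 for the others, and with the combination 3.31 (3.24 to 3.38), against 0.653. Among 96 tested zinc-finger intervals 66 were higher with GSK-126, or 68.8%, and 9 lower, or 9.38%, against 25.9% and 21.6% of all intervals. The minimum on both libraries together lets in intervals that pass only through the GSK-126 library, and 73 were tested with fenretinide. The ratio of 4.35 is summed over all 147 intervals and does not depend on that minimum. By gene, where intervals within 10 kb of a start were summed, 41 of 50 tested zinc-finger genes were higher with GSK-126, 3 lower and 6 neither. Over all genes tested, 11.5% were higher and 41.4% lower. Over the 901 tested genes with a subtelomeric interval, 17.8% were higher and 47.4% lower, with a median log2 ratio of -0.92. The minimum of 50 fragments in both libraries together lets in genes that pass only through the GSK-126 library, and 13 of the 63 zinc-finger genes with an interval were not tested. With the minimum set on the vehicle library alone, a choice made after seeing the data, 27 of 34 were higher and 2 lower, against 6.54% and 44.3% of all genes. The combination had 40 of 49 higher and 3 lower, against 9.86% higher and 32.9% lower over all genes. The median zinc-finger gene had a log2 ratio of 2.96, against -0.79 over all genes, and the value was the same with ZNF586 set at its bound. Several of these genes share an interval, so the 50 genes are not independent.

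Of the 10 largest rises with GSK-126, 7 were of this kind. The interval at the ZNF7 promoter on 8q, chr8:144830307-144849126, held 723 fragments with GSK-126, 22 with fenretinide, 446 with the combination and 8 with vehicle, a GSK-126 ratio of 95.8 (48.4 to 223). The 12q interval in ZNF891, chr12:133082139-133129440, held 1474, 65 and 1003 fragments in the GSK-126, fenretinide and combination libraries and 27 in the vehicle library. Its ratio was 57.9 (39.6 to 88.2) with GSK-126, 2.18 (1.37 to 3.55) with fenretinide and 40.2 (27.5 to 61.4) with the combination. ZNF891 was the 1 zinc-finger gene of 43 tested that was called higher with fenretinide, against 0.337% of all genes. The other leading zinc-finger intervals with GSK-126 were those nearest ZNF544 on 19q, ZNF695 and ZNF124 on 1q, and ZNF605 and ZNF140 on 12q, with ratios from 29.9 to 65.5. ZNF586, a 19q gene, had 72 fragments with GSK-126, 6 with fenretinide, 43 with the combination and 0 with vehicle, at least 25.5-fold higher with GSK-126 against a floor of 3 fragments in the vehicle library. Its exact lower counting limit, which also takes in the error of the GSK-126 count, was 20.2.

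Not every zinc-finger gene at an end was higher. ZNF543 on 19q had 21 fragments with GSK-126, 86 with fenretinide, 32 with the combination and 76 with vehicle, a GSK-126 ratio of 0.293 (0.172 to 0.480). ZNF469, on 16q, and ZNF696, on 8q, had ratios of 0.452 and 0.336. ZNF264 lies in an interval of 19q that was already well covered in the vehicle library, with 6321, 4476 and 5444 fragments in the GSK-126, fenretinide and combination libraries and 3924 with vehicle. Its ratio was 1.71, below the call. The neighbouring interval nearest PEG3, an imprinted zinc-finger gene whose symbol is outside the rule used here, held 5988, 3882 and 4882 fragments in those libraries and 3263 with vehicle.

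On 12q and 4p the segment that holds these genes stood apart from the rest of the window. The outermost 0.5 Mb of 12q, with the cluster from ZNF605 to ZNF268, had 2.30 FPKM with GSK-126, 0.197 with fenretinide, 1.67 with the combination and 0.151 with vehicle, a GSK-126 ratio of 15.2. The next 3 steps of 0.5 Mb on 12q had GSK-126 ratios of 0.443, 0.376 and 0.489, all falls, and fenretinide ratios of 0.608, 0.646 and 0.800. Summed over its window, 12q had a ratio of 1.12, so the total hid opposite changes. On 4p the outermost 0.5 Mb, with ZNF595, ZNF141 and ZNF721, had a ratio of 7.17, and the other steps 0.649, 0.757 and 0.570. Without zinc-finger intervals the GSK-126 ratio was 0.759 on 12q, 0.978 on 8q, 0.696 on 4p, 1.75 on 19q and 2.35 on 1q. On 19q, 78.0% of the GSK-126 fragments lay in intervals that the symbol rule names. That rule does not name PEG3, whose large 19q interval had a ratio of 1.95. The value of 1.75 is therefore not one for 19q free of zinc-finger genes, and a ratio without PEG3 was not computed.

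**Figure D4:**
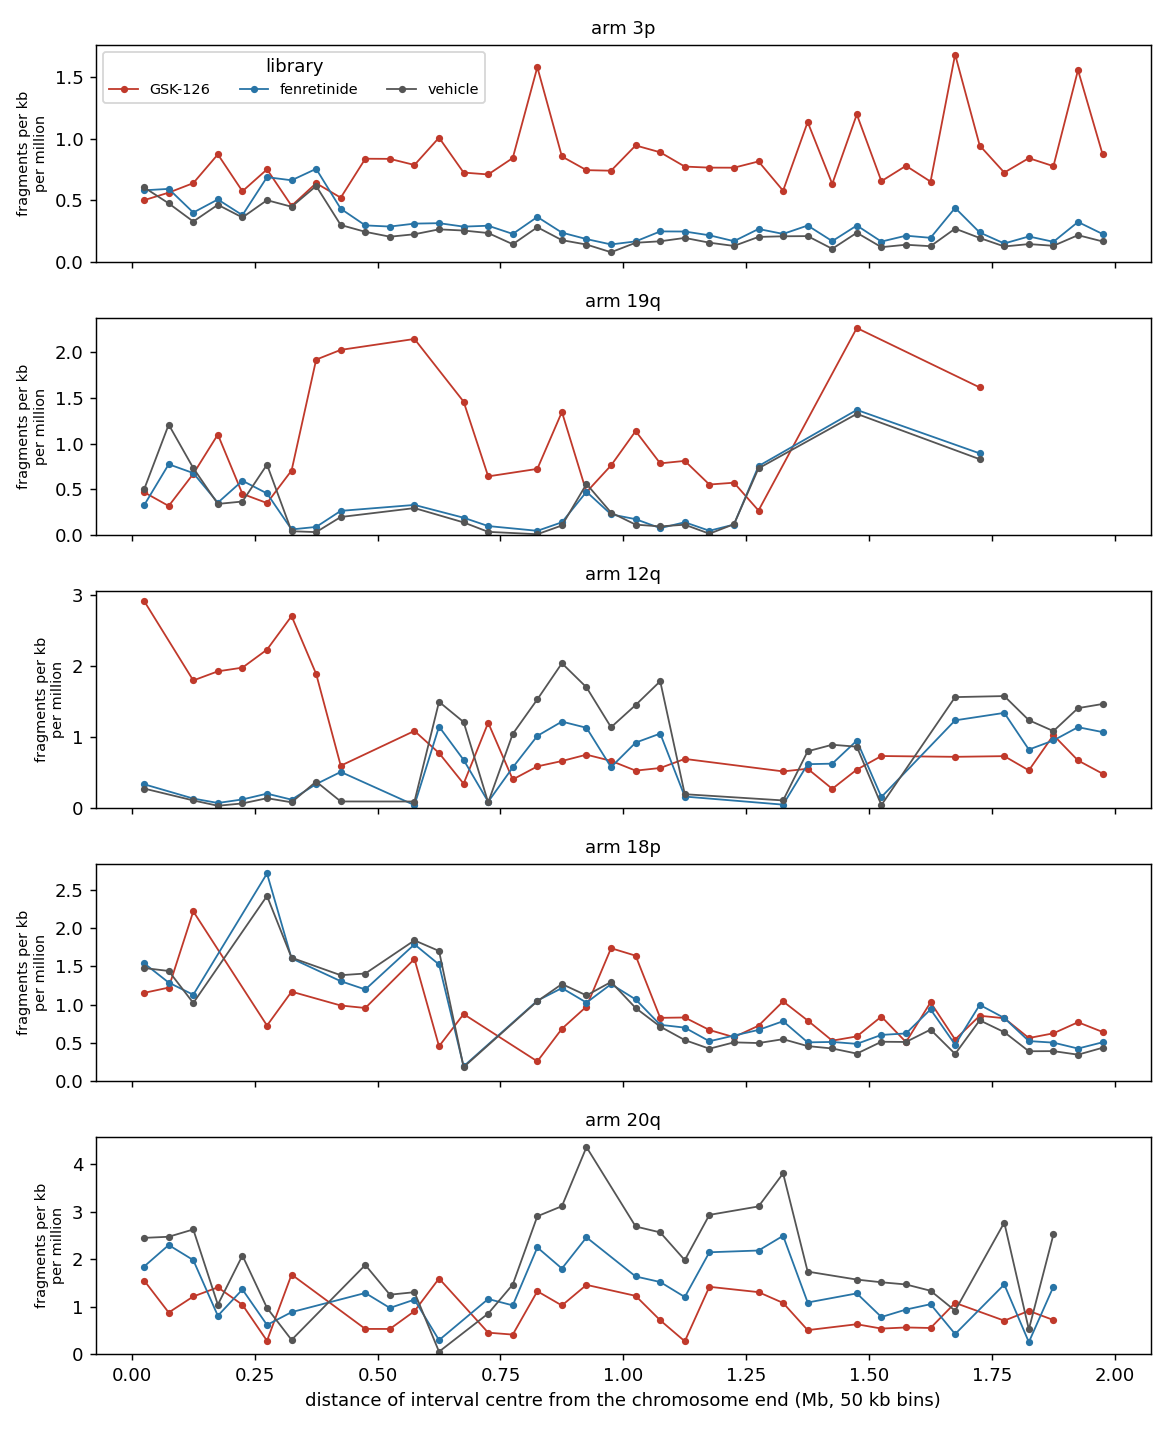
H3K27me3 level (FPKM) in the GSK-126, fenretinide and vehicle libraries along the outer 2 Mb of 5 arms, in steps of 0.05 Mb of distance from the end, with bins lacking intervals left out. On 12q the GSK-126 line is far above vehicle in the outermost 0.5 Mb and mostly below it further in, on 3p it is above vehicle throughout beyond 0.5 Mb, and on 20q vehicle is the highest in most bins.

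Other members were called higher less often than zinc-finger intervals, in 656 of 2996 tested with GSK-126, or 21.9%, against 25.9% of all intervals. Of these members 1114 were called lower, or 37.2%, against 21.6% of all intervals. MAPK9, which encodes the stress kinase JNK2, lies on 5q. An intronic interval of it, chr5:180246770-180280187, held 1294 fragments with GSK-126, 67 with fenretinide, 943 with the combination and 18 with vehicle, a GSK-126 ratio of 76.2 (48.0 to 129). An interval of LINS on 15q held 124 fragments with GSK-126, 10 with fenretinide, 99 with the combination and 1 with vehicle, a ratio of 131 with a counting interval from 23.2 to 5235. PTPRN2, a dense-core vesicle protein gene on 7q, had 1224, 313 and 914 fragments in the GSK-126, fenretinide and combination libraries and 388 with vehicle, within 10 kb of its start, a GSK-126 ratio of 3.35 (2.98 to 3.76). Over the whole PTPRN2 span the direction was the opposite: 34 intervals held 18450, 22858 and 15971 fragments in those libraries and 25467 with vehicle, a ratio of 0.768 (0.754 to 0.783). ROCK1P1, a pseudogene at the end of 18p, had 815, 138 and 493 fragments in the GSK-126, fenretinide and combination libraries and 59 with vehicle. It was 1 of only 2 members with 100 or more fragments called higher with fenretinide, at 2.12 (1.55 to 2.92).

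Families copied between chromosome ends showed shares near those of all genes, and their near-identical copies make single values uncertain. Of 20 tested genes in these families, 4 were higher with GSK-126, 8 lower and 8 neither, against 11.5% of all genes higher and 41.4% lower. Their median log2 ratio was -0.60, against -0.79 over all genes and -0.92 over genes with a subtelomeric interval. The 4 that were higher were DUX4L, DUX4L4, FRG2 and DDX11L5. The minimum on both libraries together lets in genes that pass only through the GSK-126 library, as DUX4L and DUX4L4 did. A minimum on the vehicle library alone was not tried for this list. DUX4L4 on 4q had 105 fragments with GSK-126, 2 with fenretinide, 49 with the combination and 0 with vehicle, at least 37.1-fold higher with GSK-126 against the floor, with a lower counting limit of 29.7. DUX4L had 287, 38 and 173 fragments in those treated libraries and 7 with vehicle, a ratio of 43.5 (20.8 to 109). FAM157B, by contrast, had 201, 672 and 226 fragments in them and 720 with vehicle, a GSK-126 ratio of 0.296 (0.252 to 0.347). None of 18 tested family members was called in either direction with fenretinide, where 0.337% of all genes were higher and 1.5% lower.

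Developmental transcription factor genes, typical Polycomb targets, lost share. With GSK-126, 10 of 13 tested were lower, 1 higher and 2 neither, against 11.5% of all genes higher and 41.4% lower. The median log2 ratio was -1.37, against -0.79 over all genes. Genes with a subtelomeric interval had a median of -0.92, with 47.4% lower and 17.8% higher. ONECUT3, a homeobox gene on 19p, had 91 fragments with GSK-126, 265 with fenretinide, 92 with the combination and 439 with vehicle, a GSK-126 ratio of 0.220 (0.173 to 0.276). SOX8 on 16p had 221, 447 and 232 fragments in those treated libraries and 833 with vehicle. Its ratio was 0.281 (0.241 to 0.327) with GSK-126 and 0.486 (0.432 to 0.546) with fenretinide. GATA5, a cardiac and gut regulator on 20q, had 251, 557 and 217 fragments in them and 933 with vehicle, a GSK-126 ratio of 0.285 (0.247 to 0.328). NKX6-2, a neural homeobox gene, was the 1 that was higher, with 162, 54 and 131 fragments in the treated libraries and 70 with vehicle, a ratio of 2.45 (1.84 to 3.30). With fenretinide FOXQ1, MAFA and SOX8 were lower and the other 11 of 14 were neither. This compares with 1.5% of all genes lower and 4.50% of genes with a subtelomeric interval.

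Genes of other tissues lying at chromosome ends mostly lost share too. All 7 tested mast cell and neutrophil protease genes were lower with GSK-126, among them the tryptase TPSG1 on 16p. It had 409 fragments with GSK-126, 932 with fenretinide, 364 with the combination and 1824 with vehicle. Its ratio was 0.238 (0.213 to 0.265) with GSK-126, 0.462 (0.427 to 0.501) with fenretinide and 0.216 (0.193 to 0.242) with the combination. PRTN3, neutrophil proteinase on 19p, had a GSK-126 ratio of 0.249 (0.195 to 0.313). The 4 tested alpha-globin genes were lower, with HBA1 and HBA2 sharing an interval of 44, 94 and 43 fragments in the GSK-126, fenretinide and combination libraries and 172 with vehicle. All 6 KRTAP5 genes, hair keratin-associated proteins of 11p, were lower, but they rest on 3 intervals. The one nearest KRTAP5-2 held 1145, 4324 and 1399 fragments in the treated libraries and 5159 with vehicle, a GSK-126 ratio of 0.235 (0.221 to 0.251). These genes stand beside a background of 41.4% of all genes, and 47.4% of genes with a subtelomeric interval, lower with GSK-126.

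Neuronal channel and receptor genes were lower in 7 of 11 tested with GSK-126, and PTPRN2 was the 1 that was higher. For these and the small lists below, the background with GSK-126 was 41.4% lower and 11.5% higher over all genes. Over genes with a subtelomeric interval it was 47.4% lower and 17.8% higher. CHRNA4, an acetylcholine receptor subunit gene on 20q, had 1815 fragments with GSK-126, 3604 with fenretinide, 1601 with the combination and 5785 with vehicle, a GSK-126 ratio of 0.333 (0.315 to 0.351). With fenretinide its ratio was 0.564, short of the call. Of 4 gel-forming mucin genes on 11p only MUC6 was lower with GSK-126, at 0.400 (0.328 to 0.484), and it was also lower with fenretinide, at 0.464 (0.389 to 0.552). MUC2 had 1046, 498 and 647 fragments in the GSK-126, fenretinide and combination libraries and 829 with vehicle, ratios of 1.34, 0.544 and 0.846. Of 6 beta-defensin genes on 20p, DEFB129 and DEFB132 were lower with GSK-126 and the other 4, which share an interval, had a ratio of 0.892. In the smallest lists, the collagen gene COL6A2 was higher with GSK-126 at 3.98, TNFRSF18 was lower at 0.422 and IFITM5 was neither at 0.546. COL6A2 passed the minimum on both libraries together only through its fragments in the GSK-126 library. In the fenretinide and vehicle libraries together it fell short of that minimum, so it was not tested with fenretinide.

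Of 4 genes of note in bladder cancer, FGFR3 was called lower and TERT was not at its start. FGFR3, a receptor often mutated in that cancer, lies on 4p. It had 87 fragments with GSK-126, 119 with fenretinide, 65 with the combination and 263 with vehicle. Its ratio was 0.351 (0.272 to 0.449) with GSK-126, 0.410 (0.327 to 0.510) with fenretinide and 0.268 (0.201 to 0.353) with the combination. TERT, the telomerase catalytic subunit gene on 5p, had 178, 254 and 176 fragments within 10 kb of its start in the treated libraries and 278 with vehicle. Its GSK-126 ratio there was 0.679 (0.559 to 0.823), short of the call. Over the whole TERT span 9 intervals held 1152, 2156 and 1123 fragments in those libraries and 2740 with vehicle, a ratio of 0.446 (0.416 to 0.478). NOTCH1 and H19 had no tested interval within 10 kb.

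The largest falls on single intervals were spread over 10 arms with GSK-126. CCDC183, a coiled-coil gene on 9q, led, at 15 fragments with GSK-126, 116 with fenretinide, 25 with the combination and 183 with vehicle, a ratio of 0.0869 (0.0477 to 0.147). Intervals nearest YTHDF1, AQP12A, SAMD11, SUMO3, SLC43A2, LOC100128653, DLL1, RP11-1055B8.3 and C1QTNF8 followed, with ratios from 0.123 to 0.211. The interval at DLL1, a Notch ligand gene on 6q, held 32, 105 and 35 fragments in the treated libraries and 202 with vehicle. With the combination SAMD11 led, at 0.153 (0.131 to 0.178). Fenretinide gave shallower falls at the ends. Its 10 leading intervals had ratios from 0.323 to 0.494, were nearest HCCAT4, TPSG1, IL17C, ELK2AP, MIR3621, SAMD11, LSP1, METRNL, SOX8 and GCGR, and lay on 1p, 9q, 11p, 14q, 16p, 16q and 17q.

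Adding fenretinide to GSK-126 gave small differences from GSK-126 alone. Zinc-finger intervals had a combination ratio over GSK-126 of 0.761 (0.751 to 0.772), and other members 0.958 (0.954 to 0.962). None of 53 tested zinc-finger genes was called in either direction, although their median log2 ratio was -0.37, against 0.08 over all genes. All genes tested gave 0.443% higher and 0.501% lower. Of 39 arms, 29 lay below 1, from 0.785 on 19q to 1.17 on 6p. Arms 19q, 4p and 8q, at 0.785, 0.805 and 0.812, were the 3 lowest. Each carries zinc-finger genes, but without zinc-finger intervals these ratios were 0.843, 0.875 and 0.813, so 8q hardly moved. Arm 16p, with 0 zinc-finger genes in its window, had a ratio of 0.839. Among members of at least 100 fragments, the 20q interval nearest GATA5 had 26 fragments in the combination library and 98 in the GSK-126 library, a ratio of 0.271 (0.169 to 0.421). It is intergenic, at -28773 bases from the GATA5 start, so it is not part of the GATA5 value given above. With 35 fragments in the vehicle library, it was higher with GSK-126, unlike the intervals at that start. A 3q interval nearest LOC102723643 was the 1 that was higher, with 97 fragments in the combination library and 48 in the GSK-126 library, a ratio of 2.06 (1.45 to 2.98).

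The deposited peak lists, called separately per library by the authors, differed as well. Members contained 5338 peaks over 20.2 Mb in the GSK-126 library, 4761 over 23.9 Mb with fenretinide, 6268 over 22.8 Mb with the combination and 4288 over 25.5 Mb with vehicle. More and shorter peaks were thus called with GSK-126, with a median length of 1829 bp against 2051 bp with vehicle. Of 4926 members, 1446 had a peak in all 4 libraries, or 29.4%, against 25.8% of all intervals. Another 1049 had a GSK-126 peak and no vehicle peak, or 21.3%, against 21.8%, and 1285 had a vehicle peak and no GSK-126 peak, or 26.1%, against 22.5%.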

How the data were processed

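The deposited table holds raw fragment counts for 4 H3K27me3 ChIP-seq libraries, made with featureCounts 2.0.1 per the file headers (read pairs, no strand, a fragment counted in every interval it overlaps by a fraction of at least 0.2). The submitters' processing notes name MACS2 2.1.0 for the broad peaks, which HOMER annotated per the file headers; the deposited peak score had no stated scale and was not tested. The same notes give the build as GRCh38 (hg38). The aligner and the peak-calling control were not given in the sources used here. Starts in the table are 0-based and are printed 1-based.

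Shares, exact Clopper-Pearson intervals and calls were computed with Python 3.11.15, numpy 2.4.6, pandas 2.3.3 and scipy 1.17.1, and tested on simulated counts. Figures used matplotlib 3.10.9. Alternative scalings came from DESeq2 1.42.0 and edgeR 4.0.16 in R 4.3.3. Log2 ratios used a pseudocount of 0.5, and genes needed 50 fragments. Distances of peaks to starts are those deposited. Named intervals are the 10 largest rises and falls per comparison with at least 100 fragments, ranked by the counting bound nearest 1, plus list members. Promoters come from RefSeq GRCh38.p14, and none from chromosome 8 was printed. An immunoglobulin heavy chain list matched 0 genes. Arms, members and lists were chosen with earlier results of these data known.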

Additional observations from a re-analysis of the deposited data

How the results depend on the processing

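All 4 share ratios of the ends stayed below 1 under every alternative tried. Values follow in the order GSK-126, fenretinide and combination against vehicle, then combination against GSK-126, where they moved beyond counting error. DESeq2 size factors gave 0.750 with fenretinide, 0.638 with the combination and 0.858 in the last. TMM factors gave 0.721, 0.753, 0.626 and 0.869. Scaling on the 25% of intervals with the lowest density gave 0.438, 0.744, 0.398 and 0.907. That scaling moved all log2 ratios by -0.77 with GSK-126 and -0.81 with the combination. Intervals elsewhere on chromosomes 1 to 22 then had ratios of 0.578 and 0.563. Under it 4 of 39 arms, not 9, stayed above 1 with GSK-126, so 4p, 12q, 8q, 18p and 3q turned direction. A 1 Mb window gave 0.828, 0.836, 0.767 and 0.926. A 5 Mb window gave 0.717, 0.858 and, for the last, 0.978. Without zinc-finger intervals the ratios were 0.682, 0.813, 0.653 and 0.958. Chosen after seeing the data, leaving out 3p, 1q, 19q, 4q and 4p gave 0.642, 0.805, 0.617 and 0.960, and leaving out 20q and 16p gave 0.779, 0.834 and 0.732 in the comparisons with vehicle.

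Percentages of members called moved by over 1.5 times as follows. With the lowest-density scaling, GSK-126 lower calls were 55.5%, fenretinide lower calls 8.56%, combination lower calls 58.9% and combination higher calls 12.6%. Fenretinide lower calls were 8.30% with DESeq2 factors, 8.23% with TMM and 13.9% at a ratio of 1.5. Fenretinide higher calls were 0.698% at a minimum of 50 fragments and 3.31% at a ratio of 1.5. Combination against GSK-126 gave higher calls of 0.762% with DESeq2 factors, 0.832% with TMM, 0.417% at 50 fragments and 2.77% at 1.5. Its lower calls were 1.93% at 50 fragments and 7.24% at 1.5. Without the 5 arms, the combination gave 13.2% higher. With the minimum of 50 fragments set on the vehicle library alone, 0 of 34 zinc-finger genes were higher with fenretinide, against 1 of 43. The cause of these moves was not tested. No paired analysis was possible because each condition had 1 library, and no library could be left out.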

Other observations

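The ends of the X chromosome lie outside the rule used above. Their 291 intervals within 2 Mb of an end had 0.143% of fragments with GSK-126, 0.234% with fenretinide, 0.158% with the combination and 0.242% with vehicle. The share ratio against vehicle was 0.590 (0.581 to 0.600) for GSK-126, 0.966 (0.953 to 0.979) for fenretinide and 0.653 (0.643 to 0.663) for the combination. The other 19944 X intervals had ratios of 1.41, 1.11 and 1.40, on the other side of 1 from the ends. Scaled on the 25% of intervals with the lowest density, the rest of X fell below 1 as well with GSK-126 and the combination, at 0.831 and 0.799, beside 0.347 and 0.372 at the ends, and stayed at 1.01 with fenretinide, beside 0.880.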
